A study of Mus musculus with 2 samples.

Results

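The genes described here encode the membrane skeleton of the red cell: Sptb, Ank1, Epb41, Epb42, Add1, Add2, Tmod1, Dmtn and Mpp1. They were taken by name, through their Ensembl identifiers, and not by a cutoff on any measured value. The list was chosen with earlier results of these data known. The 9 genes are 9 of 43346 Ensembl rows in the deposited gene tables, and their 77 transcripts are 77 of 129984 rows in the transcript tables. RNA came from CFU-E cells, committed red cell progenitors that form small colonies in culture, which the labels record as primary cells isolated from bone marrow. The mice were male C57BL/6J, aged 5 to 6 weeks, with no genotype or treatment named. All samples belonged to 1 group of 2 biological replicates, sequenced as total RNA depleted of ribosomal RNA, so no comparison between conditions could be made and no p-value is given. Both replicates carry 1 donor identifier in the labels, and their spread may in part be technical.

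The skeleton is a lattice of spectrin under the plasma membrane. Spectrin tetramers, built of alpha and beta chains, meet at short actin filaments, where protein 4.1, adducin, dematin and tropomodulin hold the junction together. Ankyrin, with protein 4.2, ties the beta chain to the band 3 anion exchanger, and p55 links protein 4.1 to glycophorin C. Several of these genes are known for tissue-specific promoters and alternative exons that change as erythroid cells mature, and inherited defects in them cause fragile, misshapen red cells.

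Replicate 1 held 62576357 expected counts in all and replicate 2 held 36889517, of which the 9 genes took 0.978% and 0.953%. Levels are in TPM, a relative abundance in which counts are divided by transcript length and scaled to the same total in each library. Nuclear protein-coding genes held 12.4% of TPM in replicate 1 and 7.49% in replicate 2, so TPM of such genes ran higher in replicate 1 as a whole, with a median ratio of 1.56 over the 3384 that averaged at least 1000 counts. Erythroid markers were present, with 7 of 7 at 10 TPM or more in both libraries (summed level 1179 TPM in replicate 1 and 760 in replicate 2). Granulocyte markers were as complete, with 7 of 7 at that level and sums of 1190 and 599 TPM. Of other lineages, 1 of 6 monocyte and macrophage, 1 of 5 B cell, 0 of 6 megakaryocyte and 0 of 4 T cell markers reached 10 TPM in both libraries, and Gp1bb of the megakaryocyte list was at 0 counts in both. The part of granulocytic or other cells in the levels below was not tested, and in bulk RNA fewer cells of a type and less RNA per cell cannot be told apart.

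All 9 skeleton genes stood at 10 TPM or more in both libraries, a level that 4.79% of 21461 nuclear protein-coding genes reached. Their median of mean levels was 88.4 TPM, beside 0.055 TPM over all of those genes, 9193 of which had 0 counts in both libraries. Among those at 1 TPM or more in both, the median was 5.44 TPM in replicate 1 and 3.43 in replicate 2. Sptb, the beta chain of erythroid spectrin, led the group with 198 TPM in replicate 1 and 125 in replicate 2 (161 ± 52.1, SD, n = 2), from 262812 and 152054 expected counts. It ranked 64th and 70th among nuclear protein-coding genes. Ank1, the erythroid ankyrin that binds the beta chain, came next with 147 and 109 TPM (128 ± 26.8, SD, n = 2). Sptb exceeded Ank1 1.35-fold in replicate 1 and 1.14-fold in replicate 2, the same direction in both.

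Of the junction proteins, Epb41 (protein 4.1, which strengthens the contact of spectrin with actin) had 113 TPM in replicate 1 and 63.6 in replicate 2 (88.4 ± 35.0, SD, n = 2). Dmtn (dematin, an actin-bundling protein) had 65.2 and 34.9 TPM. The adducins, which cap the fast-growing end of actin and recruit spectrin to it, were uneven: Add1, the alpha subunit, had 128 and 72.8 TPM, against 27.5 and 18.2 TPM for Add2, the beta subunit. Tmod1 (tropomodulin, the cap of the slow-growing end) had 25.3 and 18.4 TPM. At the membrane anchors, Epb42 (protein 4.2, a catalytically inactive relative of the transglutaminases) had 114 and 63.3 TPM, and Mpp1 (p55, a membrane-associated guanylate kinase homolog) had 19.9 and 27.0 TPM. On gene TPM, Mpp1 was the only member listed higher in replicate 2; on transcripts with a complete coding region it had 13.4 TPM in replicate 1 and 10.7 in replicate 2.

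The order by TPM was Sptb, Ank1, Add1, Epb42, Epb41, Dmtn, Add2, Tmod1, Mpp1 in replicate 1 and Sptb, Ank1, Add1, Epb41, Epb42, Dmtn, Mpp1, Tmod1, Add2 in replicate 2. Neighbours that swapped were Epb42 and Epb41, at ratios of 1.01 and 0.995, and the 3 lowest genes, whose order did not hold between libraries. Add1 exceeded Epb42 1.12-fold and 1.15-fold on gene TPM. Dmtn was above the 3 lowest genes in both libraries.

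**Figure D1:**
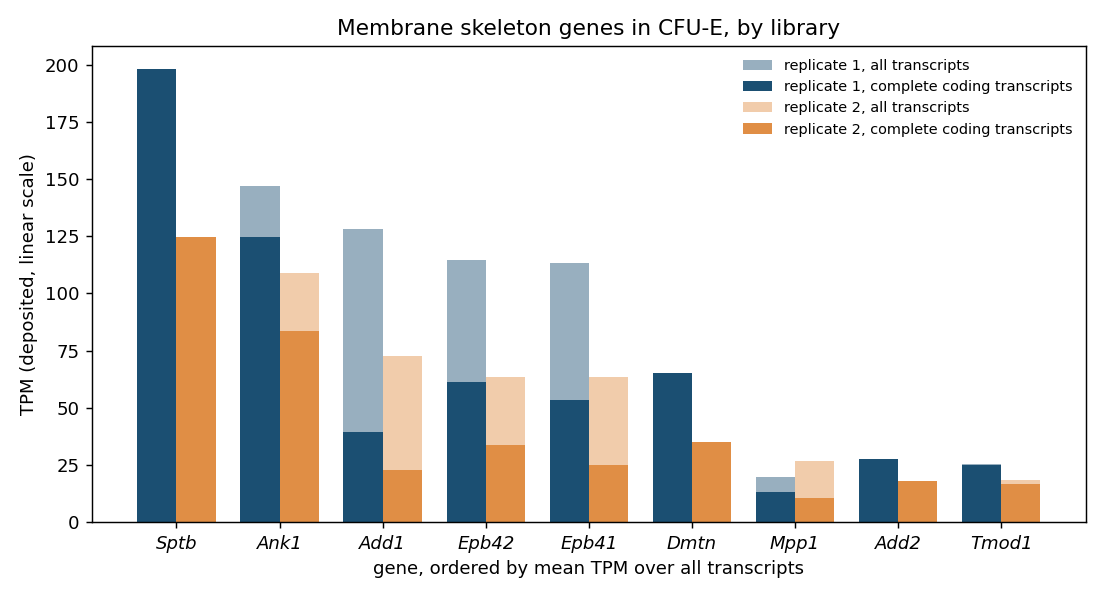
TPM of the 9 skeleton genes in replicate 1 (blue) and replicate 2 (orange), on a linear axis from 0. Pale bars give all transcripts of a gene and dark bars in front give transcripts annotated with a complete coding region; for Add1 the dark bars reach 39.5 and 22.9 TPM of 128 and 72.8.

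Gene TPM sums every transcript of a gene, including short fragments and retained introns, and a short transcript gains a large TPM from few reads. Counting only transcripts annotated with a complete coding region, an alternative added after the values were seen, the order was the same in both libraries: Sptb, Ank1, Dmtn, Epb42, Epb41, Add1, Add2, Tmod1, Mpp1. Epb42, at 61.2 and 33.9 TPM, then stood above Add1, and Dmtn above Epb41, which had 53.3 and 24.8 TPM. Add1 lost most, to 39.5 TPM in replicate 1 and 22.9 in replicate 2. On this measure Add1 was 1.44-fold and 1.26-fold over Add2, in place of 4.66-fold and 4.00-fold on gene TPM. Add2 had 1 quantified transcript, annotated as complete, so this measure could lower Add1 but not Add2. Dmtn kept its own value, since all 3 of its transcripts are annotated as complete, and took the third place on this measure, against the sixth on gene TPM.

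Every paralog from a fixed list of 20 stood below its skeleton relatives in both libraries. None of the 20 reached 10 TPM in both libraries, 6 reached 1 TPM in both, and Ank3, Tmod2, Tmod4 and Mpp3 had 0 counts in both. Their TPM summed to 19.5 in replicate 1 and 14.0 in replicate 2, where the 9 skeleton genes summed to 839 and 532. In the spectrin family, Sptan1, the widely expressed alpha chain, was the highest paralog at 2.27 and 1.77 TPM. Sptb exceeded Sptbn1, the widely expressed beta chain, 111-fold in replicate 1 and 108-fold in replicate 2. Ank2 was the highest other ankyrin at 0.21 and 0.08 TPM.

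Among the other families, Epb41l2 was the highest relative of protein 4.1 by mean, and Epb41 exceeded it 177-fold and 277-fold. In replicate 2 alone Epb41l1 was the highest, at 0.44 TPM against 0.23 for Epb41l2. Add3, the gamma adducin that pairs with the alpha subunit in most tissues, had 1.27 TPM in replicate 1 and 1.86 in replicate 2. Add2 exceeded it 21.6-fold and 9.80-fold. Tmod3, the widely expressed tropomodulin, had 2.53 and 1.26 TPM, and Mpp2 had 5.20 and 2.58 TPM. The distance between a skeleton gene and its highest paralog was thus wide for Sptb, Ank1 and Epb41 in both libraries, and smaller for Add2, Tmod1 and Mpp1.

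**Figure D2:**
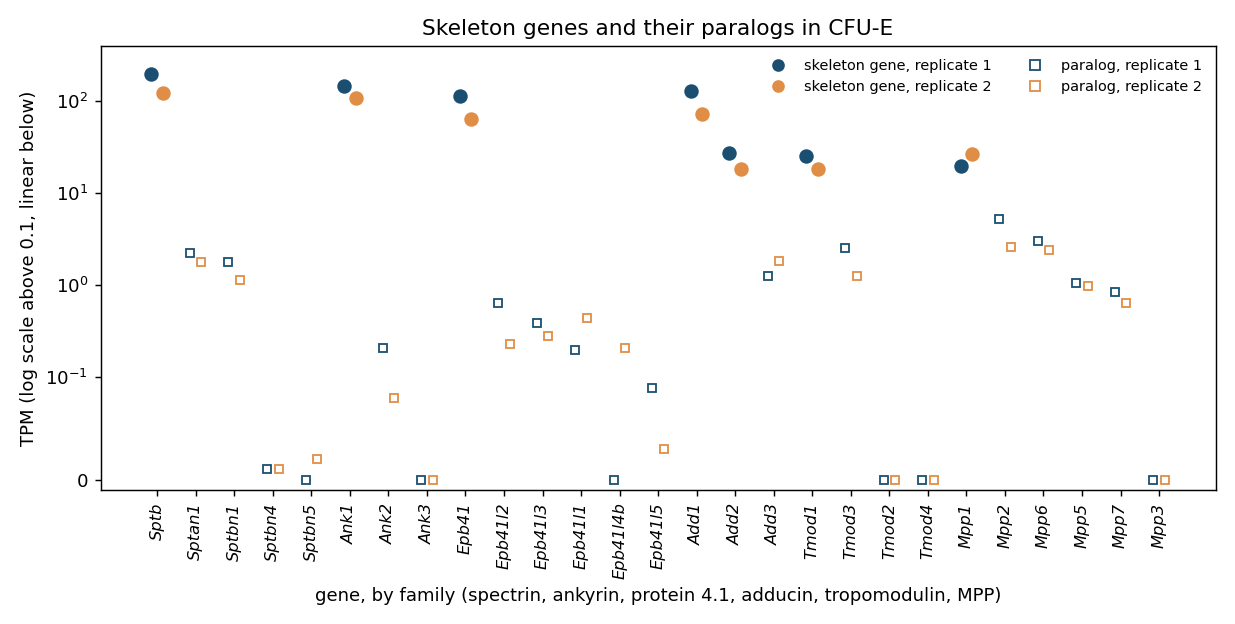
TPM of the skeleton genes with paralogs (filled circles) and of their 20 paralogs (open squares) by family, in replicate 1 (blue) and replicate 2 (orange); the axis is logarithmic above 0.1 TPM and linear below. Every filled circle lies above 18 TPM and every open square below 5.3 TPM.

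Of 19 partners of the skeleton, 12 stood at 10 TPM or more in both libraries. Slc4a1, the band 3 exchanger that ankyrin and protein 4.2 bind, had 693 TPM in replicate 1 and 423 in replicate 2. Ank1 was present at 0.212 and 0.258 times, and Epb42 at 0.165 and 0.150 times, the level of Slc4a1. Gypc, the glycophorin bound by protein 4.1 and p55, had 71.0 and 38.2 TPM, and Actb, the actin of the junctions, had 198 and 136 TPM. Slc2a1, the glucose transporter that anchors the junction in human red cells, had 0 counts in replicate 1 and 38 in replicate 2.

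After scaling the counts by TMM, a factor that sets most genes equal between libraries, the skeleton genes differed little between replicates. The log2 ratio of replicate 1 over replicate 2 ran from -0.37 for Mpp1 to 0.30 for Dmtn, with Ank1 at -0.01 and Sptb at 0.09. None of the 9 was 2-fold apart, a difference shown by 21.1% of the 10403 genes that averaged 50 counts or more. Among nuclear protein-coding genes alone the share was 18.8% of 9480 at the same minimum, and 1.39% of the 3384 that, like the skeleton genes, averaged at least 1000 counts. A count of 0 of 9 is near that last share. The median absolute log2 ratio was 0.17 over the 9 and 0.20 over those 3384.

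Within each gene, transcripts were compared by their share of the gene's TPM in the same library, which does not depend on the scale of the library. Of the 77 transcripts, 11 were at 0 counts in both libraries, and 17 held 10% or more of their gene in both. The leading transcript was the same in both libraries for 6 of the 8 genes with at least 2 transcripts in the tables, beside 74% of the 820 protein-coding genes at 10 TPM with as many. The exceptions were Add1 and Mpp1, and Add2 has 1 transcript. Sptb, Dmtn, Tmod1 and Add2 were each carried mainly by 1 transcript, while Ank1, Epb41, Epb42, Add1 and Mpp1 were mixtures. The deposited shares are estimates that divide reads among annotated models, with no counts of reads across splice junctions used here, so each exon value below is a sum over models.

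**Figure D3:**
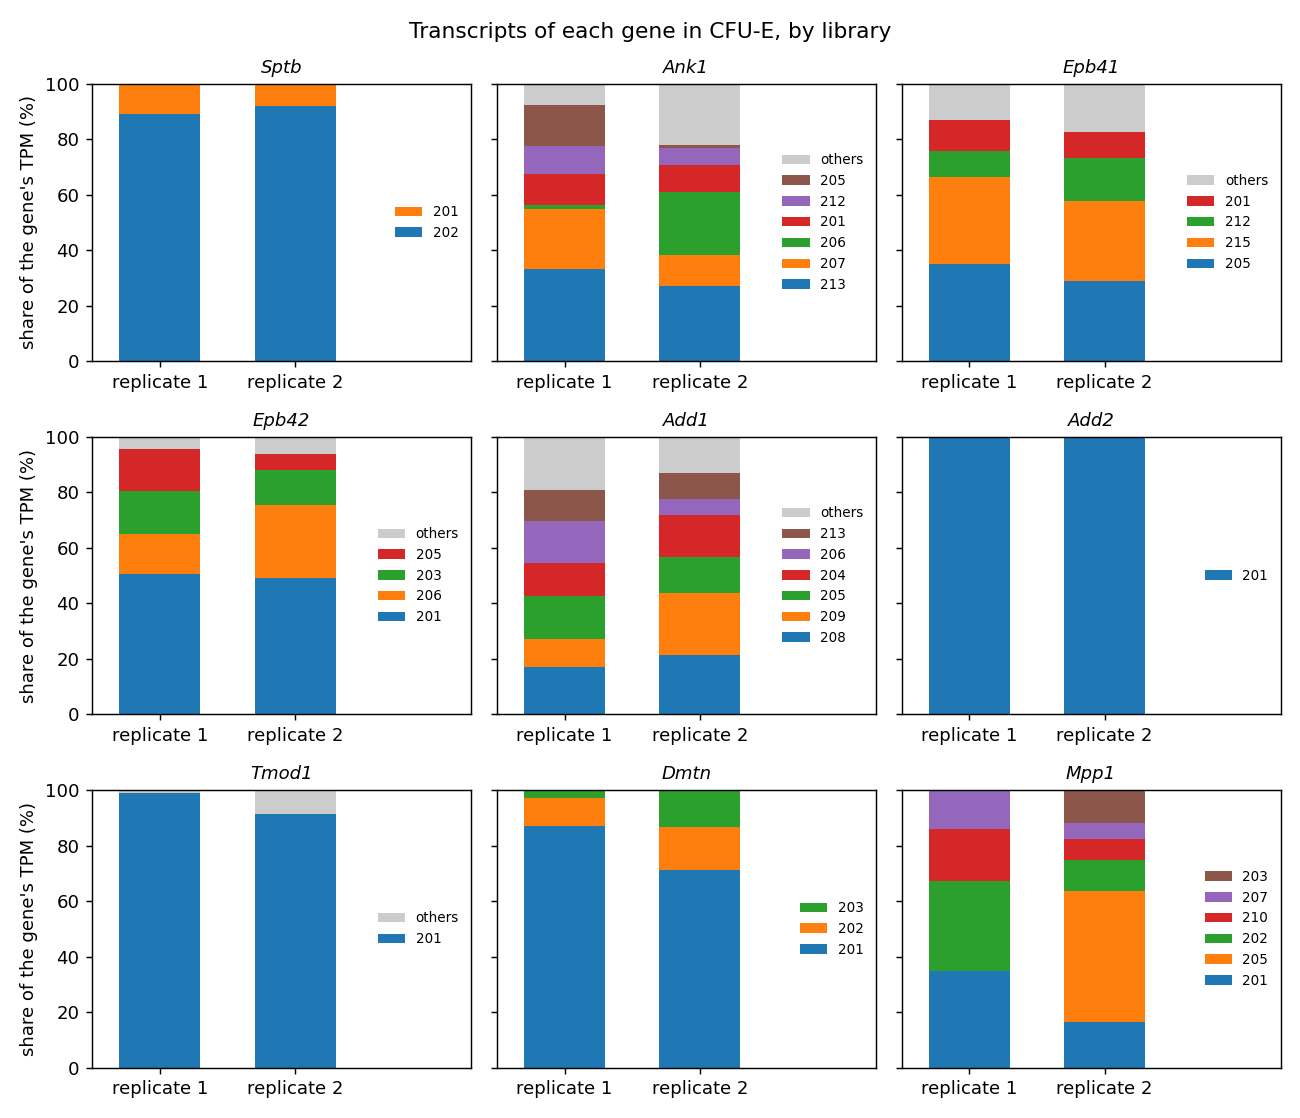
Share of each gene's TPM held by its transcripts, one panel per gene, with replicate 1 left and replicate 2 right; colours are transcripts at 10% or more in either library, named by the number after the gene symbol, and grey is the rest. Sptb-202 fills 89.2% and 92.0% of Sptb, while Mpp1-205 is absent in replicate 1 and fills 47.0% in replicate 2.

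Sptb, on the minus strand of chromosome 12 (76580488 to 76710547, mm10), ends in alternative ways, and the forms carry different tails of the beta chain. Sptb-202, of 2137 residues, runs past a splice site into a terminal exon. Sptb-201, of 2329 residues, is spliced there on to 4 more exons and has the longer tail known from muscle and brain. The sequences at the branch are shown because they decide which tail is made. Capitals mark, in Sptb-202, the bases after the shared part up to the stop codon, and in Sptb-201 the first bases of the next exon:

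Sptb-202: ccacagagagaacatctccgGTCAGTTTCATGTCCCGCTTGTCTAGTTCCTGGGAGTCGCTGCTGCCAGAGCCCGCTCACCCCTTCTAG

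Sptb-201: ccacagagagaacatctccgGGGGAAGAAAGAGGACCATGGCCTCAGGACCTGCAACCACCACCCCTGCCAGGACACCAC

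The branch gives Sptb-202 a tail of 22 residues and Sptb-201 one of 214. Sptb-202 held 89.2% of Sptb TPM in replicate 1 and 92.0% in replicate 2 (90.6% ± 2.02, SD, n = 2), and Sptb-201 held 10.8% and 8.0%. Sptb-202 exceeded Sptb-201 8.23-fold and 11.5-fold, so the short tail led in both libraries. Their annotated starts also differ, by 524 bases, and Sptb-203, a retained-intron model, was at 0 counts in both.

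Epb41 lies on the minus strand of chromosome 4 (131923413 to 132075321, mm10). It is the textbook case of an alternative exon in red cell maturation: a 63-base exon encodes 21 residues of the spectrin and actin binding domain, and its inclusion is known to rise late in erythroid differentiation. Upstream of it lie exons of 57 and 42 bases, encoding 19 and 14 residues, which the mature red cell form is known to lack. The joins in the 3 transcripts that differ there are shown, with the 57-base and 63-base exons in capitals, the 42-base exon in lower case between them, and flanks of 20 bases from the neighbouring constant exons:

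Epb41-205: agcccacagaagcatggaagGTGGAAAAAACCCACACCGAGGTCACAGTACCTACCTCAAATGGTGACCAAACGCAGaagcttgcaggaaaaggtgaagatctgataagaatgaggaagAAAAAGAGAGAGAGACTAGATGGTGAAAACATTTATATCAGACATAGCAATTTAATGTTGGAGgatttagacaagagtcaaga

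Epb41-212: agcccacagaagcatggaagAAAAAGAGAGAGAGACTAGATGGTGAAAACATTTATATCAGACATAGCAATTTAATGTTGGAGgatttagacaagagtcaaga

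Epb41-215: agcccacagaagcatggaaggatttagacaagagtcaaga

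The 63-base exon (chr4:131962924-131962986) was in 63.3% of Epb41 TPM spanning that place in replicate 1 and in 64.3% in replicate 2 (63.8% ± 0.707, SD, n = 2). The 42-base exon was in 52.8% and 45.7%, and the 57-base exon in 52.8% and 46.1%. The exons came in a few combinations. All 3 together, as in Epb41-205 and Epb41-201, made up 52.8% in replicate 1 and 45.7% in replicate 2. The 63-base exon alone, the red cell pattern carried by Epb41-212, made up 10.5% and 18.1%. None of the 3, as in Epb41-215, made up 36.7% and 35.7%. So the inclusion of the 63-base exon was close between libraries, while the split between its companions moved by more. Epb41-215, annotated as noncoding, gave 35.55 of the 37.35 TPM with none of the 3 in replicate 1, and 18.31 of 19.25 in replicate 2. No model with a complete coding region that lacks the 63-base exon exceeded 1.18 TPM in replicate 1 or 0.01 in replicate 2. The inclusion values thus do not describe coding transcripts alone.

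By transcript, Epb41-205, of 858 residues, held 35.0% in replicate 1 and 29.0% in replicate 2, and Epb41-215, annotated as noncoding, held 31.4% and 28.8%. Epb41-201, which encodes the same 858 residues as Epb41-205 and has a long leader, held 11.0% and 9.6%, and Epb41-212, whose model lacks the start of the coding region, held 9.4% and 15.2%. Because Epb41-205 is a model of the coding region alone, its TPM says nothing about where those transcripts began. By expected counts Epb41-215 led in both libraries, at 40.5% and 38.2% of Epb41.

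Of 5 RNA-binding proteins known to act on the 63-base exon, 4 reached 10 TPM in both replicates. Srsf1, an activator, had 75.4 TPM in replicate 1 and 38.2 in replicate 2. Mbnl1 and Rbm38, which raise inclusion, had 50.6 and 25.1 TPM and 38.6 and 16.8 TPM. Hnrnpa1, a repressor, had 42.2 and 29.3 TPM. Rbfox2, an activator, was all but absent, at 0 counts in replicate 1 and 2 in replicate 2. No test linked these levels to the exon, since the study held 1 condition.

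**Figure D4:**
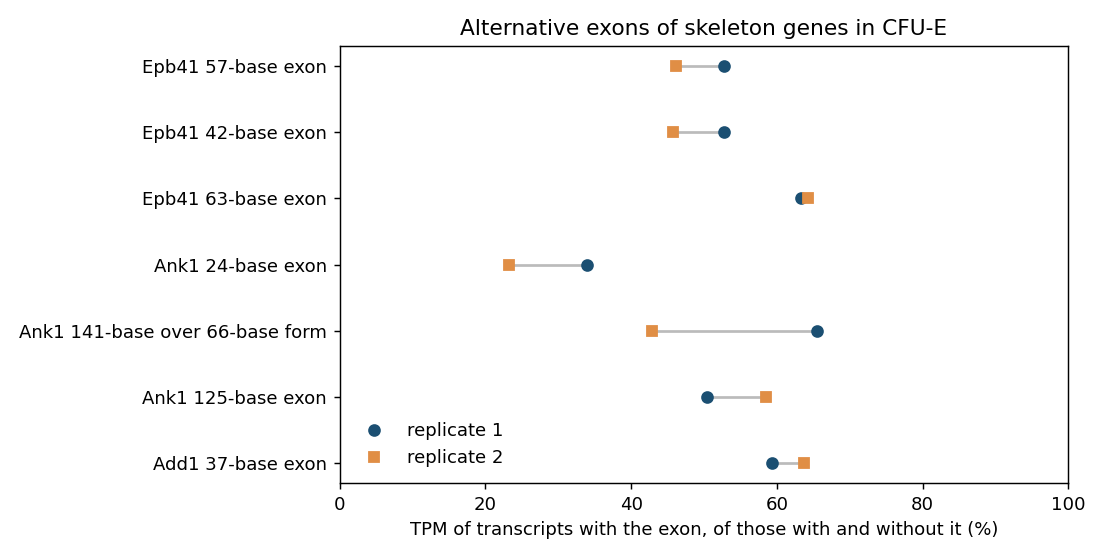
Share of TPM from transcripts with an alternative exon, of transcripts that span the place with or without it, in replicate 1 (circles) and replicate 2 (squares); for the Ank1 exon with 2 lengths it is the share of the longer form. The Epb41 63-base exon lies at 63.3% and 64.3%, and, of the exons plotted, the longer Ank1 form moves most, at 65.5% and 42.9%.

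Epb41 also has alternative starts, and the exon that holds the first start codon has a longer and a shorter form. The most upstream group of starts, up to position 132075321, held 31.4% of Epb41 TPM in replicate 1 and 30.2% in replicate 2. A start at 132072097 held 12.4% and 9.6%, and starts near 132049078 held 0.02% and 0.22%. The rest began at downstream positions or, as with Epb41-205, had no leader in the model. The order of the 3 leader starts was the same in both libraries. The exons are shown at the join, with the 17 bases in capitals that Epb41-201 keeps and Epb41-215 skips; the ATG at base 8 of them is the annotated start codon of Epb41-201:

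Epb41-201 leader join: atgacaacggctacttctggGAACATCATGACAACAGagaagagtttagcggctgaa

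Epb41-215 leader join: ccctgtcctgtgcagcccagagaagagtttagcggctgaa

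Skipping these bases removes the upstream start codon, and translation of protein 4.1 in red cells is known to begin at a later one. In the upstream group, transcripts that skip the 17 bases held all of the TPM of models that reach the exon in replicate 1 and 95.7% in replicate 2. Over all models with that exon and its upstream join, 71.7% and 72.2% skipped them. That share leaves out Epb41-205, which held 35.0% of Epb41 TPM in replicate 1 and 29.0% in replicate 2. Its model begins at the ATG within these bases and has no upstream join, so the share does not describe Epb41 as a whole. Models that start at 132072097 are annotated with the longer form only, so no choice could be read for them.

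RefSeq gives windows from 250 bases before to 50 after a start site on GRCm38.p6, the same assembly as mm10, and 3 of them belong to Epb41. The 2 whose starts held more than 5% are shown. Capitals mark the GATA sequence (AGATAA or AGATAG or TGATAA or TGATAG, on either strand, the core bound by GATA1) and CCAAT on either strand:

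Epb41 upstream window, chr4:132075264-132075563, minus strand: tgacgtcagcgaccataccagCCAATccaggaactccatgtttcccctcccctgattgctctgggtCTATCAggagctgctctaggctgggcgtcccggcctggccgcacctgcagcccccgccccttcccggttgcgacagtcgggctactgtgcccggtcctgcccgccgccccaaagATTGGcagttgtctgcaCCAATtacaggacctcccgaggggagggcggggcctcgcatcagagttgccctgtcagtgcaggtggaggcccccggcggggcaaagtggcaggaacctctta

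Epb41 middle window, chr4:132072048-132072347, minus strand: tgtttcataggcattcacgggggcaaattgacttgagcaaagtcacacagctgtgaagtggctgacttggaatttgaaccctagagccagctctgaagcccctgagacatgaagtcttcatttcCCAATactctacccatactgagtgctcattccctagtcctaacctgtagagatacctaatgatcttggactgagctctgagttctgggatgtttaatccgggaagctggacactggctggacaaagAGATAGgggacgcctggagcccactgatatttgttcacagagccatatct

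The upstream window held 1 GATA match and 3 CCAAT matches at a GC content of 65.3%, and the middle window held 1 of each at 48%. The third window, whose starts were nearly silent, held no GATA match and 2 CCAAT matches at 74% GC. Of 32817 windows, 29.8% held a GATA match, 37.4% a CCAAT match and 57.5% a CACCC match. Windows were found for Sptb, Epb42, Add1, Add2, Tmod1 and Mpp1 as well, and not for Ank1 and Dmtn. A GATA match stood in the windows of Sptb, Epb42, Add2 and Mpp1, and none in those of Add1 and Tmod1. CCAAT stood in those of Add1 and Mpp1, and not in those of Sptb, Epb42, Add2 and Tmod1. CACCC, on either strand, stood in those of Sptb, Add2, Tmod1 and Mpp1, and not in those of Epb41, Epb42 and Add1. Not every window holds the start of a leading transcript. That of Sptb holds the start of Sptb-201 alone, 524 bases from that of Sptb-202, and that of Add1 holds Add1-204 alone. The Add2 window holds no start of a quantified transcript. The Tmod1 window holds only Tmod1-205, at 0.12% of Tmod1 TPM in replicate 1 and 0% in replicate 2. A match describes the letters and shows no binding.

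Ank1, on the plus strand of chromosome 8 (22974844 to 23150497, mm10), had 17 transcripts in 7 groups of starts lying within 500 bases of each other. The group at 23035099 to 23035231 led, with 49.2% of Ank1 TPM in replicate 1 and 50.9% in replicate 2 (50.1% ± 1.20, SD, n = 2). The group at 23058259 to 23058525, led by Ank1-207 of 1878 residues, held 25.1% and 16.8%. The most upstream group, at 22974844 to 22975136, held 0.39% and 0.42%. The order of these 3 was the same in both libraries. A downstream group at 23139030 to 23139277, led by Ank1-201 of 156 residues, held 11.2% and 11.3% of TPM but 1.63% and 2.12% of counts. It is the small ankyrin best known from skeletal muscle, where it sits in the sarcoplasmic reticulum.

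**Figure D5:**
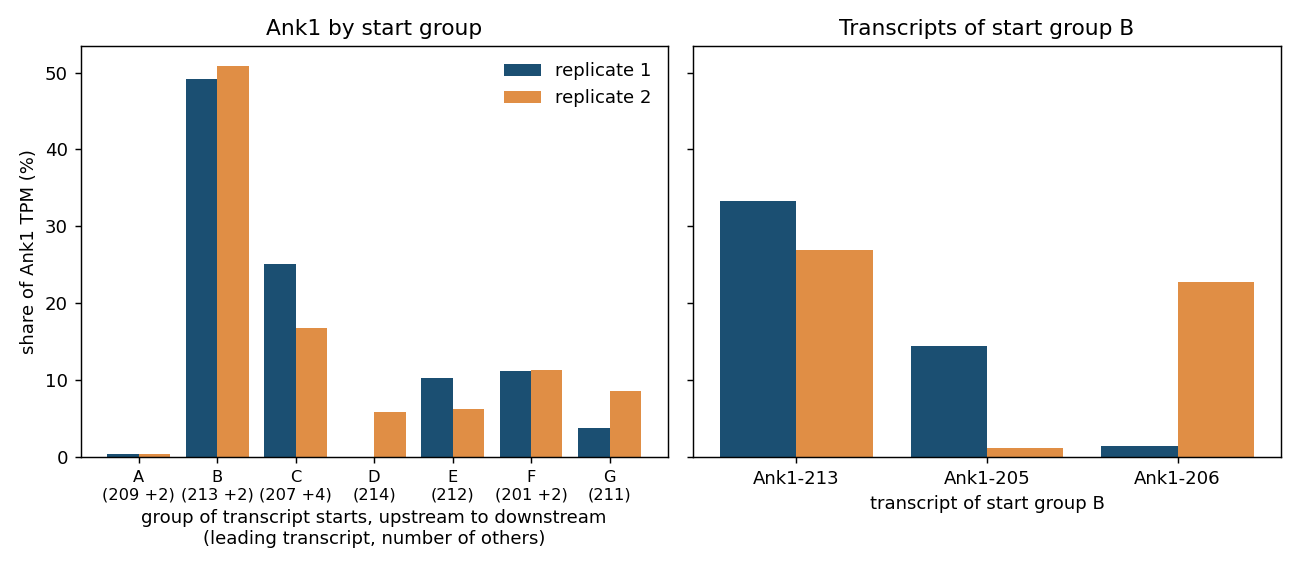
Left, share of Ank1 TPM by group of transcript starts, lettered from upstream to downstream and marked with the leading transcript; right, the 3 transcripts of group B, replicate 1 in blue and replicate 2 in orange. Group B holds 49.2% and 50.9%, while within it Ank1-205 and Ank1-206 trade places.

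Inside the leading group the transcripts did not hold still. Ank1-213, of 1863 residues, had 33.3% in replicate 1 and 27.0% in replicate 2 and led Ank1 in both. Ank1-205 had 14.5% and 1.2%, and Ank1-206 had 1.5% and 22.7%. These transcripts share most of their exons and differ near the end of the coding region, in the donor of an exon at chr8:23141164-23141304 and in a 125-base exon after it. The join is shown for the transcripts with the longer and the shorter form, with the 75 bases of the longer form in capitals:

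Ank1-213 end: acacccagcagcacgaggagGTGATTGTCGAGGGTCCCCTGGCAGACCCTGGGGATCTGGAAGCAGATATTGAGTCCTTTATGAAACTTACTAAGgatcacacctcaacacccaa

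Ank1-206 end: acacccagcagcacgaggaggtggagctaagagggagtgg

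The longer form made up 65.5% of TPM over that exon in replicate 1 and 42.9% in replicate 2 (54.2% ± 16.0, SD, n = 2). Among transcripts of at least 2000 bases alone it made up 64.0% and 41.4%. The 125-base exon was in 50.4% and 58.5%. Whether the longer or the shorter form led thus differed between the libraries, while the leading start group and the leading transcript did not.

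A 24-base exon of Ank1 (chr8:23110347-23110370, 8 residues) separates the leader groups, since every quantified model from 23058259 to 23058525 has it and none of those in the leading group does. It is shown in capitals, beside the join that skips it:

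Ank1-207: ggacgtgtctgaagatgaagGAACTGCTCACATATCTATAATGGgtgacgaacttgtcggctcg

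Ank1-213: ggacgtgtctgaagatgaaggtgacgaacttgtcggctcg

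Its inclusion was 34.0% in replicate 1 and 23.2% in replicate 2 (28.6% ± 7.59, SD, n = 2), and by the build of the models this follows the share of the start group. Retained-intron models of Ank1 took 10.3% and 6.2% (Ank1-212) and 3.8% and 8.6% (Ank1-211). Ank1-214, a model incomplete in its coding region, was at 0 in replicate 1 and held 5.8% in replicate 2.

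Epb42 (chr2:121017891-121037072, minus strand) was led by Epb42-201, of 673 residues in 10 exons, with 50.5% in replicate 1 and 49.3% in replicate 2. Epb42-202, of 691 residues in 13 exons, held 3.0% and 4.3%. The remainder went to models with no coding region: Epb42-203 held 15.2% and 12.9%, Epb42-206 held 14.6% and 26.0%, and Epb42-205, a retained intron of 625 bases, held 15.3% and 5.8% of TPM but 3.06% and 1.19% of counts. Models with a complete coding region made up 68.0% and 65.5% of Epb42 counts.

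Add1 (chr5:34573664-34632308, plus strand) had no transcript above 23% in either library. The highest TPM was that of Add1-208 in replicate 1, with 17.1% there and 21.4% in replicate 2, and of Add1-209 in replicate 2, with 10.3% in replicate 1 and 22.4% there. Both are retained-intron models, of 650 and 698 bases. Its 7 models under 1000 bases held 58.0% and 59.3% of TPM but 13.6% and 17.0% of counts. Of the coding forms, Add1-205, the alpha adducin of 735 residues, held 15.3% and 12.8%, and Add1-204, of 632 residues, held 11.9% and 15.4%. They differ by a 37-base exon (chr5:34629136-34629172) that shifts the reading frame. It was in 59.3% and 63.7% of the TPM of models that hold or skip it. With models of a 34-base form of the exon counted too, it was in 57.1% and 61.0%. Which of these forms led changed between libraries, at ratios of Add1-205 over Add1-204 of 1.29 and 0.833. Add1-206, an incomplete model of 407 bases, held 15.3% and 5.6%, and Add1-213, also incomplete, held 11.1% and 9.3%. Add1-213 gave 14.26 of the 32.08 TPM with the 37-base exon in replicate 1, and 6.75 of 18.99 in replicate 2. The shares of that exon thus do not describe complete coding models alone.

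Dmtn (chr14:70601263-70636048, minus strand) was led by Dmtn-201, of 405 residues, with 87.2% in replicate 1 and 71.3% in replicate 2. Dmtn-202, of 380 residues, held 9.98% and 15.4%, and Dmtn-203, of 383 residues, held 2.9% and 13.3%. Dmtn-201 thus led in both libraries, by a wider margin in replicate 1. The residue counts come from a later annotation, in which Dmtn-201 is 5418 bases long and Dmtn-203 4176, where the deposited tables give 4129 and 4187. That annotation also lists 7 Dmtn transcripts that the tables do not.

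Tmod1 (chr4:46038935-46116032, plus strand) was almost wholly Tmod1-201, of 359 residues, at 99.0% in replicate 1 and 91.2% in replicate 2. Add2 (chr6:86028681-86124409, plus strand) had 1 transcript in the tables, Add2-201 of 725 residues, which begins 49403 bases downstream of the RefSeq start; the later annotation lists 9 more, so its forms could not be compared here.

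Mpp1 (chrX:75109733-75131016, minus strand) was the least stable. Mpp1-201, of 466 residues, held 34.7% in replicate 1 and 16.6% in replicate 2, and Mpp1-202, of 452 residues, held 32.6% and 11.3%. Mpp1-205, an incomplete model of 645 bases, was at 0 in replicate 1 and had 12.7 TPM from 886 counts in replicate 2, 47.0% of Mpp1 there. Mpp1-203 was likewise at 0 in replicate 1 and at 11.8% in replicate 2. Mpp1-205 was the transcript of Mpp1 whose share moved most between the libraries, and was left out for that reason. Without it, Mpp1 had 19.9 TPM in replicate 1 and 14.3 in replicate 2, where the other 8 genes were also higher in replicate 1. Since Mpp1-205 was at 0 in replicate 1, leaving it out could lower replicate 2 alone. On TMM-scaled counts 5 genes were higher in replicate 1 and 4, Mpp1 among them, in replicate 2. Retained-intron models, Mpp1-210 and Mpp1-207, held 18.8% and 13.9% in replicate 1 and 7.5% and 5.9% in replicate 2. By counts, Mpp1-201 led in both.

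Some rows overlap the skeleton genes. Dkc1, transcribed against the end of Mpp1, had 1793 counts in replicate 1 and 852 in replicate 2. It shares with Mpp1 only positions 75109733 to 75109777, so most of the Dkc1 row lies outside Mpp1. Tstd2, antisense to the end of Tmod1 from 46114746 to 46116032, had 735 and 514 counts. Gm15816, antisense to the end of Ank1, had 37 and 114. The processed pseudogene Gm15815 lies inside Ank1 on the same strand and had 291 and 206 counts. Mir486, the microRNA within Ank1, had 0 counts in both libraries of this total RNA assay. Whether the counting used strand is not given in the sources used here. Within the overlaps, reads of antisense partners therefore cannot be told apart from those of Mpp1, Tmod1 and Ank1.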

How the data were processed

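Ribosome-depleted total RNA from mouse CFU-E cells was sequenced in 2 libraries of 1 group, each from 100 ng of RNA, per the labels. The authors deposited a gene and a transcript table per library on mm10 with annotation M4, per the notes deposited with the tables; aligner and quantifier: not given in the sources used here. Per the file headers, the deposited values are expected counts (estimates that divide shared reads among transcripts), TPM, posterior mean TPM, credibility bounds of TPM (a deposited signal that was read but printed nowhere) and the percent of a gene held by each transcript. Shares computed here from TPM differed from those deposited percent values by at most 0.0291 points. TPM divides counts by effective length, so short transcripts gain large values from few reads, and expected counts depend on the models supplied.

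Symbols, coordinates, exons and coding regions came from GENCODE M21, matched on identifiers without version (42462 of 43346 rows matched); 19 transcripts of these genes appear only in M21, and 2 have other lengths there. Complete coding means that M21 annotates both start and stop. Starts within 500 bases were grouped. Exon inclusion is the TPM of transcripts with the exact exon over that of transcripts with the exact exon or skipping it. Spanning transcripts with another form of the exon were left out, except for the Ank1 exon with 2 lengths, where both forms were counted. Expected counts were rounded and scaled by TMM in edgeR 4.0.16 over all Ensembl rows, with a prior count of 0.5 and DESeq2 1.42.0 size factors as an alternative, in R 4.3.3; the ratio script was tested on simulated counts. Python 3.11.15, pandas 2.3.3 and matplotlib 3.10.9 did the rest. Counts of single genes ran from 4541 to 262812. Mean and SD are over n = 2.

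With 1 group, no groups were compared. The genes named were the 9 members, their leading transcripts, and transcripts at 10% or more in either library or more than 15 points apart. Also named were the highest paralog of each family, and partners and regulators of the fixed lists at 10 TPM. Epb42-202, Sptbn1, Epb41l1, Slc2a1, Rbfox2, Ank1-211, Ank1-214, Epb41 starts, the paralogs at 0 and overlapping rows were named after their values were seen. One further item of the fixed lists is not reported here. Members and lists were chosen with earlier results of these data known. RefSeq windows came from GRCm38.p6, and protein sequences were not used here.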

Additional observations from a re-analysis of the deposited data

How the results depend on the processing

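On complete coding transcripts some orders given on gene TPM turned: Epb42 then stood above Add1, Dmtn above Epb41, and Mpp1 was higher in replicate 1. By expected counts Epb41-215 led Epb41 in place of Epb41-205. All 9 genes stayed at or above 10 TPM in each library with posterior mean TPM, with TPM rescaled over nuclear protein-coding genes, in either library alone, at a minimum of 5 TPM and on complete coding transcripts; at a minimum of 50 TPM, 5 did. The median level of 88.4 TPM was 880.6 after rescaling to nuclear protein-coding genes, which multiplies values 8.05-fold in replicate 1 and 13.4-fold in replicate 2 by its construction, and 39.1 on complete coding transcripts, an alternative added after seeing the data that leaves out transcripts. With 1 library left out it ran from 63.3 to 113 TPM. The count of 17 transcripts at 10% or more was 30 at a minimum share of 5%, and ran from 23 to 27 with 1 library left out, where only the other had to pass. It was 18 with posterior mean TPM, 20 with expected counts and 20 among transcripts of at least 1000 bases, a limit also added after seeing the data. Leading transcripts matched for 7 genes, Add2 with its 1 transcript included, by TPM and posterior mean TPM and for 8 by expected counts or among transcripts of at least 1000 bases. None of the 9 genes was 2-fold apart under TMM, DESeq2 size factors, library size, TMM over nuclear protein-coding genes, the TPM ratio or no filter. TPM rescaled over nuclear protein-coding genes was not among these settings. On it Mpp1 stood at 160 in replicate 1 and 360 in replicate 2, more than 2-fold apart. Of single genes, all 9 levels stayed within 1 SD with posterior mean TPM, and 4 moved beyond it on complete coding transcripts. No paired analysis was possible because the design holds 1 group. All 9 genes were well above 0 counts in both libraries. The effect of depth, or of the different size ranges in the labels, on the shares of transcripts was not tested.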
